A study of Homo sapiens with 8 samples.

Results

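The genes described here regulate or mark the epithelial-mesenchymal state of a cell. They are the transcription factors ZEB1, ZEB2, SNAI1, SNAI2 and TWIST1, the adhesion molecule CDH2 and the intermediate filament proteins VIM, KRT8 and KRT18. They were chosen by symbol, 9 in all, and 8 of them were measured among the 15982 genes of the count table. SNAI1 was not analysed here. RNA was sequenced from 143BTK- cells, a human osteosarcoma line without thymidine kinase. All cultures were grown without glucose in medium with 10 mM galactose, 5% dialysed serum and uridine. One group received a mimic of the microRNA hsa-miR-101-3p, a synthetic RNA, and the other a negative control mimic, each at 80 pmol, given at the start and again at 48 h, and all cells were harvested at 120 h. Each group has 4 libraries, which the labels describe as separate transfection experiments of this 1 line. A mimic is delivered to raise the amount of a microRNA in the cell, and that amount was not analysed here.

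Epithelial cells are joined by E-cadherin junctions and carry a keratin network, whereas mesenchymal cells carry vimentin and, often, N-cadherin. ZEB, SNAI and TWIST proteins are repressors that bind E-box sequences in DNA and turn epithelial genes down, and ZEB1 and ZEB2 are described targets of miR-101. A microRNA guides Argonaute to a 3' UTR that pairs with its seed, and the mRNA is then less stable and less translated. Osteosarcoma arises from cells of the bone-forming lineage, so a mesenchymal program is its usual state.

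The mimic's sequence and the matches to its seed in the members are shown because they say which members hold a site. The microRNA is given from RefSeq (GRCh38.p14) with the seed, bases 2 to 8, in capitals. Matches were searched in the longest 3' UTR of each gene in GENCODE 29 (GRCh38), as GTACTGTA (8mer), GTACTGT (7mer-m8) and TACTGTA (7mer-A1), on the strand of the mRNA. Capitals in the sites mark the match. The ZEB1 sites lie at chr10:31528554-31528561 and chr10:31528687-31528693 on the plus strand, the ZEB2 site at chr2:144388428-144388434 on the minus strand, and the sites of EZH2, shown as a described target outside the set, at chr7:148807525-148807532 and chr7:148807581-148807587 on the minus strand.
hsa-miR-101-3p: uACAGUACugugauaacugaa
ZEB1 8mer: tagatctgtgcaacatttttGTACTGTAtg
ZEB1 7mer-A1: ttacacagtgtagtgtataaTACTGTAgt
ZEB2 7mer-A1: tcctaattttatttatttcaTACTGTAgt
EZH2 8mer: tgaaattctgaatttgcaaaGTACTGTAag
EZH2 7mer-m8: cttagcttcaggaacctcgaGTACTGTgg

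ZEB1 holds an 8mer and a 7mer-A1 match in a 3' UTR of 2549 bases, and ZEB2 only a 7mer-A1 match in one of 5370 bases. No match was found in the 3' UTRs of SNAI2, TWIST1, CDH2, VIM, KRT8 or KRT18. Of the 12188 tested genes with an annotated 3' UTR, 4.59% have an 8mer as their strongest match, 11.1% a 7mer-A1 and 76.1% none. A match is a stretch of letters and was not tested as a site. EZH2, a histone methyltransferase, stood at 25.9, 26.7, 30.3 and 29.3 CPM (counts per 1000000 counts of the scaled library size) in miR-101 replicates 1 to 4 and at 46.0, 46.7, 51.3 and 38.9 CPM in control replicates 1 to 4. It was lower in every miR-101 library than in any control (log2 fold change -0.70 ± 0.11, edgeR adjusted p = 0.00561), but was not called with replicates 1 and 2 summed or in replicates 3 and 4 alone (edgeR adjusted p = 0.565 in the latter).

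With the mimic ZEB1 was lower, and ZEB2 and KRT8 were higher. ZEB1 fell 1.42-fold, ZEB2 rose 1.53-fold and KRT8, a type II keratin of simple epithelia, rose 1.91-fold. These were 3 of the 8 measured members, against 6.62% of 15905 tested genes called at an edgeR adjusted p under 0.05 (3.3% higher and 3.32% lower). The members were listed with earlier results of these data known, so the shares are set side by side as a description and were not tested. SNAI2, TWIST1, CDH2, VIM and KRT18 did not pass that test. The median log2 fold change (miR-101 over control) was 0.39 over the 8 members and -0.01 over all tested genes. Groups that did not overlap in CPM were seen for the same 3 members, and for 15.1% of tested genes (7.76% higher and 7.34% lower). DESeq2 and limma-voom called the same 3 members, against 10.7% of genes with DESeq2 (5.27% higher, 5.46% lower) and 6.66% with limma-voom (3.46% and 3.19%). EdgeR with the replicate number as a block called 3 members higher and 1 lower, against 5.55% and 4.99% of genes (10.5% in all).

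Libraries held 17603054 to 20160267 counts, and the smallest count of any member was 299. Replicates 1 and 2 lay close together in both groups. Their counts differed by a chi-square of 3.82 (miR-101) and 4.72 (control) per gene, against 14.5 to 70.9 for the other pairs of libraries within a group, and a value near 1 would be sampling noise alone. This does not show whether they came from separate cultures. They were kept as separate samples because the labels describe separate experiments, and the members were also tested in replicates 1 and 2, in replicates 3 and 4 and with replicates 1 and 2 summed to 1 sample. With that sum no member was called by edgeR (4 at an unadjusted p under 0.05), and 1.09% of genes were (0.665% higher and 0.421% lower). Replicates 3 and 4 alone gave no called member (2 at an unadjusted p under 0.05) and 0.0379% of genes, and replicates 1 and 2 alone 7 of 8 members and 32.4% of genes. A test of whether the effect differed between these pairs of replicates called no member and no gene (edgeR interaction, 343 of 15905 genes at an unadjusted p under 0.05, none of them a member). It had 2 libraries per group in each pair, and the SE of the difference was 0.18 to 0.33 (log2) over the members. It therefore cannot show that the effects were alike.

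**Figure D1:**
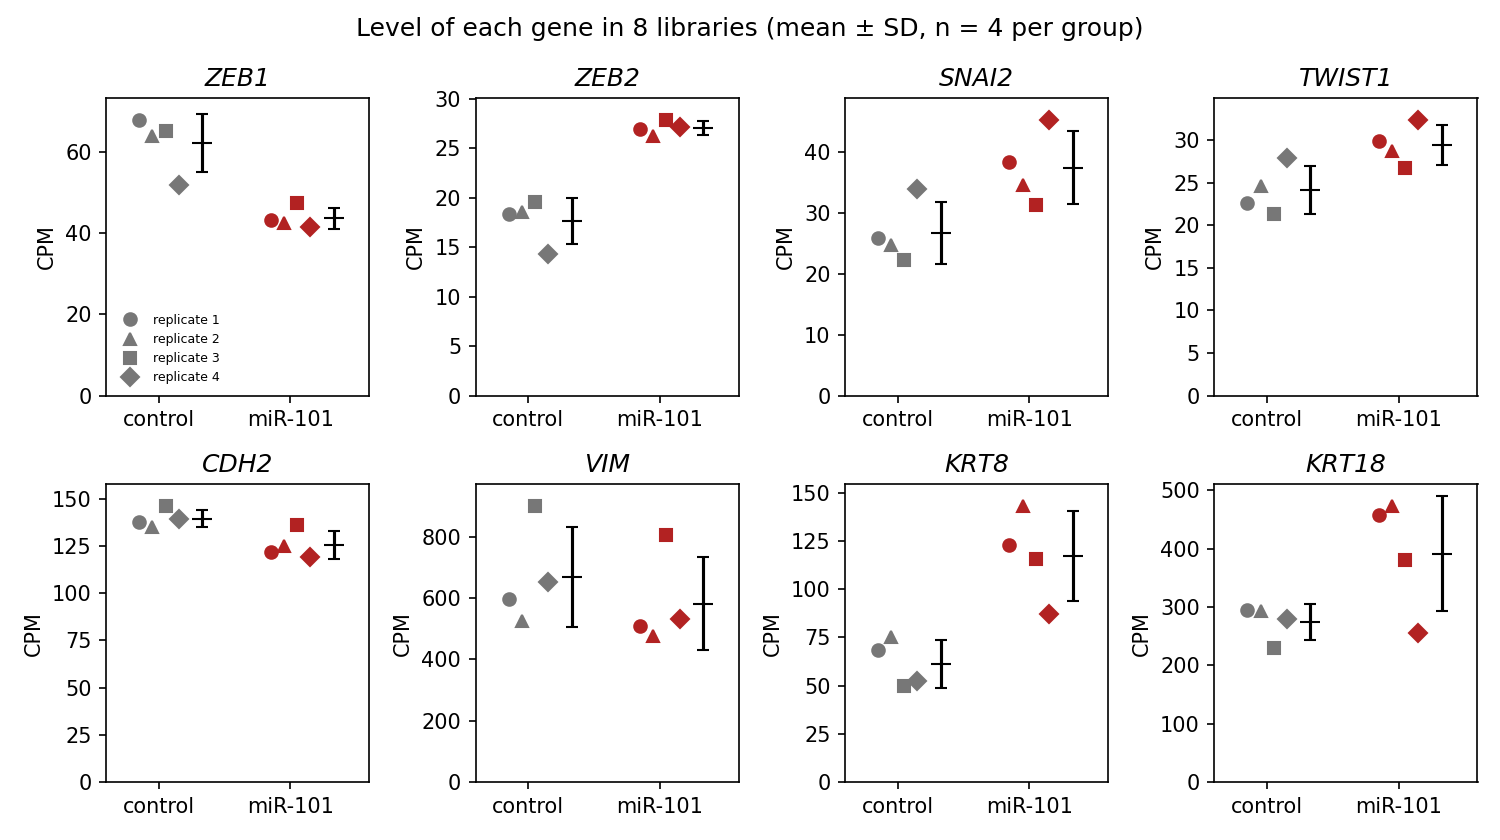
Level in CPM (y axis, from 0) of each of the 8 measured genes in the control and miR-101 libraries; each symbol is a library, marked by replicate, and the bar gives the mean ± SD of 4. The groups do not overlap for ZEB1, ZEB2 and KRT8 and overlap for the other 5 genes.

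ZEB1 is a zinc finger and homeodomain repressor of CDH1 and other epithelial genes (GRCh38 chromosome 10, 31318495 to 31529814). It stood at 43.2, 42.5, 47.3 and 41.4 CPM in miR-101 replicates 1 to 4. The control replicates 1 to 4 had 67.8, 63.8, 65.1 and 51.8 CPM. Every miR-101 library was below every control library, and control replicate 4 came nearest to them. The means were 43.6 ± 2.58 and 62.1 ± 7.07 CPM (SD, n = 4 each), and the log2 fold change was -0.51 ± 0.11 (SE), at an adjusted p of 0.02 by edgeR. The call was lost without miR-101 replicate 1 (edgeR adjusted p = 0.071), miR-101 replicate 2 (0.0763), control replicate 1 (0.0666) or control replicate 2 (0.0642) and with replicates 1 and 2 summed (0.183). Replicates 1 and 2 gave a log2 fold change of -0.62, and replicates 3 and 4 gave -0.40 (edgeR adjusted p = 0.773).

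Exons at the start of ZEB1 overlap the antisense gene ZEB1-AS1, and whether counting used the strand is not given in the sources used here. ZEB1-AS1 was counted at 2.41 ± 0.568 CPM under miR-101 and at 2.73 ± 0.326 CPM under the control mimic (log2 fold change -0.17, edgeR adjusted p = 0.663). Reads in the shared exons were not counted apart, and their part in the ZEB1 value was not tested.

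ZEB2, the paralog of ZEB1 and a repressor of the same kind (chromosome 2, 144364364 to 144524583), moved the other way. It stood at 27.0, 26.2, 27.9 and 27.1 CPM in miR-101 replicates 1 to 4 and at 18.3, 18.5, 19.6 and 14.3 CPM in control replicates 1 to 4. The miR-101 libraries lay within 2 CPM of each other and above all controls. The means were 27.1 ± 0.664 and 17.7 ± 2.32 CPM (SD, n = 4 each), and the log2 fold change was 0.61 ± 0.12, at an adjusted p of 0.0136 by edgeR. It was called whichever of the 8 libraries was left out (highest edgeR adjusted p 0.0485) but not with replicates 1 and 2 summed (0.114). In replicates 3 and 4 alone the log2 fold change was 0.70 (edgeR adjusted p = 0.52). Exons of ZEB2 overlap ZEB2-AS1, which was not analysed here.

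The balance of the pair can be read within a library, where it does not depend on scaling. The ratio of ZEB2 to ZEB1 counts was 0.624, 0.618, 0.589 and 0.656 in miR-101 replicates 1 to 4 and 0.271, 0.291, 0.30 and 0.276 in control replicates 1 to 4. Its mean was 0.622 ± 0.0274 against 0.284 ± 0.0136 (SD, n = 4 each), 2.19 times higher with the mimic, and the groups did not overlap. Per kilobase of exon ZEB1 was still the more abundant of the pair with the mimic, at 6.78 ± 0.40 CPM per kb against 2.03 ± 0.0497 for ZEB2.

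**Figure D2:**
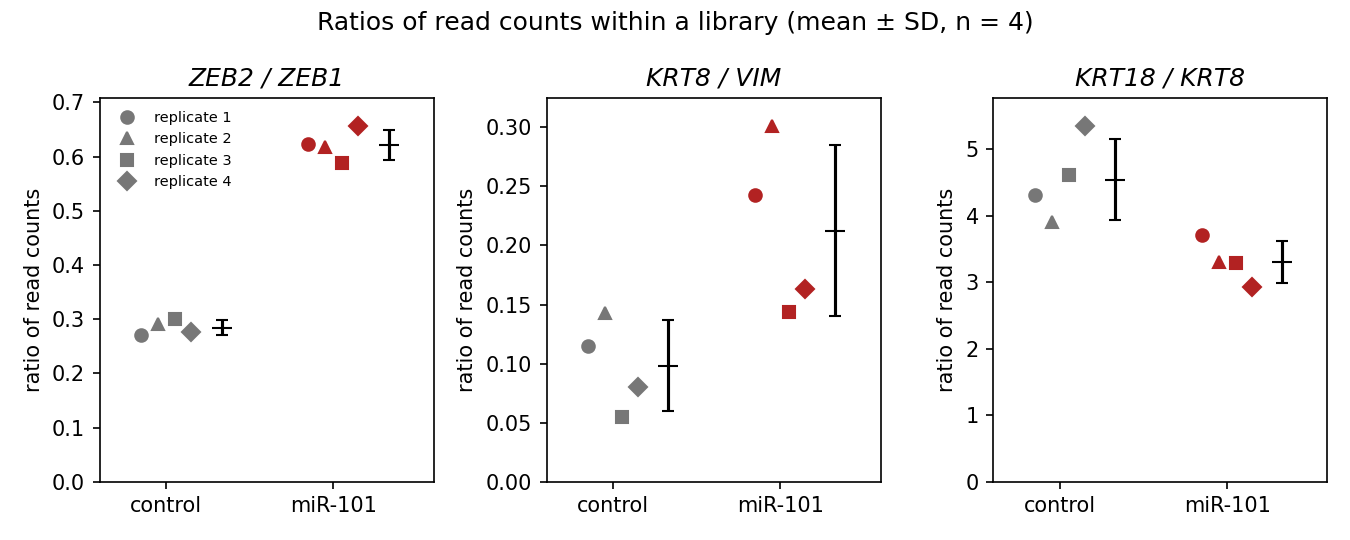
Ratios of read counts within each library (y axes, from 0) for ZEB2 over ZEB1, KRT8 over VIM and KRT18 over KRT8; each symbol is a library and the bar the mean ± SD of 4. The miR-101 libraries sit between 0.589 and 0.656 for ZEB2 over ZEB1, and all control libraries are at or below 0.30.

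SNAI2 encodes the zinc finger repressor Slug and TWIST1 a basic helix-loop-helix factor, and both bind E-boxes. SNAI2 (chromosome 8, 48917604 to 48921740) stood at 38.5, 34.7, 31.3 and 45.3 CPM under miR-101 and at 25.9, 24.7, 22.3 and 33.9 CPM in control replicates 1 to 4. The groups overlapped because control replicate 4 was above miR-101 replicate 3. In each same-numbered pair the miR-101 library was higher, and replicate 4 was the highest of both groups. The log2 fold change was 0.49 ± 0.16 with an edgeR adjusted p of 0.0954. With the replicate number as a block, which compares libraries within pairs, SNAI2 was called higher (0.49 ± 0.09, edgeR adjusted p = 0.0148), and so it was without control replicate 4 (0.62, edgeR adjusted p = 0.0202).

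TWIST1 (chromosome 7, 19020991 to 19117672) stood at 29.9, 28.7, 26.7 and 32.3 CPM under miR-101 and at 22.6, 24.7, 21.4 and 27.9 CPM in control replicates 1 to 4. It had the same order of libraries within the miR-101 group as SNAI2, from replicate 4 at the top to replicate 3 at the bottom. The miR-101 library was higher in 4 of 4 pairs, but the groups overlapped. The log2 fold change was 0.29 ± 0.12 with an edgeR adjusted p of 0.183, and 0.102 with the replicate block. Replicates 1 and 2 alone gave 0.31 with an adjusted p of 0.00867.

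CDH2, or N-cadherin, is the classical cadherin of mesenchymal and neural cells (chromosome 18, 27950966 to 28177446). It stood at 122, 125, 136 and 119 CPM in miR-101 replicates 1 to 4 and at 138, 135, 146 and 139 CPM in control replicates 1 to 4. It was lower with miR-101 in 4 of 4 pairs, and only miR-101 replicate 3 reached the control range. The log2 fold change was -0.15 ± 0.09 (edgeR adjusted p = 0.342), and it ran from -0.20 to -0.13 over the 17 alternative fits, none of which called it. Exons of CDH2 overlap the antisense gene AC110015.1, and those of TWIST1 overlap AC003986.2, so both counts are uncertain.

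VIM encodes vimentin, the intermediate filament protein of mesenchymal cells (chromosome 10, 17228259 to 17237593), and was the most abundant member. It stood at 508, 476, 806 and 533 CPM in miR-101 replicates 1 to 4 and at 597, 526, 899.5 and 651 CPM in control replicates 1 to 4. Replicate 3 was the highest of both groups, and that difference between cultures was larger than the one between groups. The miR-101 library was lower in 4 of 4 pairs. The log2 fold change was -0.20 ± 0.20 (edgeR adjusted p = 0.596), with the replicate block -0.21 ± 0.08 (0.16), and without control replicate 3 -0.03 (0.932). In replicates 1 and 2 alone it was called lower (-0.20, 0.0253). Exons of VIM overlap the antisense genes VIM-AS1 and AL133415.1, so its count is uncertain. VIM-AS1 held 3.14 ± 0.678 CPM under miR-101 and 2.68 ± 0.444 CPM under the control mimic and was not called.

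KRT8 and KRT18 encode the keratins that pair in the filaments of simple epithelia. They lie side by side on chromosome 12 (52897187 to 52949954 and 52948871 to 52952901), where the annotated genes share 1084 bases on opposite strands. Exons of KRT8 overlap those of KRT18, so both counts are uncertain, and the part of shared reads was not tested. KRT8 stood at 123, 143, 116 and 87.0 CPM in miR-101 replicates 1 to 4 and at 68.5, 75.2, 49.7 and 52.3 CPM in control replicates 1 to 4. All miR-101 libraries were above all controls, with miR-101 replicate 4 the lowest of its group. The means were 117 ± 23.2 and 61.4 ± 12.4 CPM (SD, n = 4 each), and the log2 fold change was 0.93 ± 0.18, at an adjusted p of 0.0114 by edgeR. The call held whichever of the 8 libraries was left out (highest edgeR adjusted p 0.0427) and was lost with replicates 1 and 2 summed (0.0657). In replicates 3 and 4 alone the log2 fold change was 0.99 (0.259). In these bulk libraries more cells with the keratin and more keratin RNA per cell cannot be told apart.

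KRT18 was more abundant and less even. It stood at 458, 473, 381 and 256 CPM in miR-101 replicates 1 to 4 and at 295, 294, 229 and 279.6 CPM in control replicates 1 to 4. In 3 of 4 pairs the miR-101 library was higher, and in pair 4 it was lower. The means were 392 ± 99.2 and 274 ± 31.0 CPM (SD, n = 4 each), and the log2 fold change was 0.51 ± 0.18, at an adjusted p of 0.12 by edgeR. Without miR-101 replicate 4 it was called higher (0.66, edgeR adjusted p = 0.018). The count ratio of KRT18 to KRT8 was 3.31 ± 0.317 with miR-101 and 4.55 ± 0.608 in the control, and the groups did not overlap. The ratio of KRT8 to VIM was 0.212 ± 0.0726 against 0.0983 ± 0.0385, 2.16 times higher, where the lowest miR-101 library (0.144) lay just above the highest control (0.143).

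**Figure D3:**
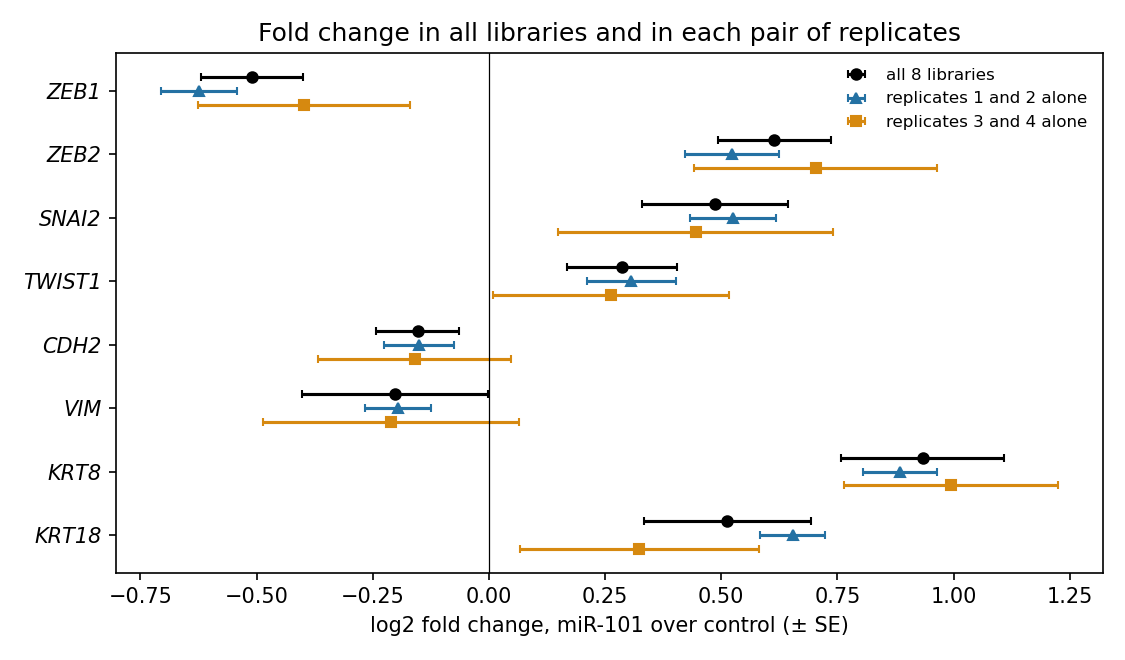
Log2 fold change, miR-101 over control, with its standard error (x axis) for each of the 8 measured genes, in all 8 libraries (black), in replicates 1 and 2 (blue) and in replicates 3 and 4 (orange). Each gene lies on the same side of 0 in all 3 fits, and the error bars of replicates 3 and 4 are the widest for every gene.

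Both keratin genes have many processed pseudogenes, whose rows can hold reads of the parent, so the keratin levels are uncertain. The table holds 8 rows of KRT8 pseudogenes and 10 of KRT18 pseudogenes. These rows took 28.6 to 36.0% of the summed KRT8 reads and 10.1 to 11.8% of the summed KRT18 reads. For KRT8 the share was 28.6 to 30% in the miR-101 libraries and 31.0 to 36.0% in the controls, without overlap. The part of this difference in the KRT8 fold change was not tested. Of the KRT8 pseudogene rows 3 were called higher (KRT8P3, KRT8P45 and KRT8P33, log2 fold changes 1.07, 1.04 and 0.84), none was called lower by edgeR, DESeq2 or limma-voom, and KRT8P12 had a log2 fold change of -0.41 (edgeR adjusted p = 0.189). None of the 3 was called once miR-101 replicate 1 or 2 was left out (largest edgeR p after adjustment 0.105), KRT8P45 also not without control replicate 1, and KRT8P33 also not without miR-101 replicate 3 or control replicate 2 or 3. All 10 KRT18 pseudogene rows had a positive log2 fold change (0.15 to 0.67), and none was called by edgeR or limma-voom (3 at an unadjusted p under 0.05). DESeq2 called 3 of them higher, edgeR with the replicate block 1 and edgeR without miR-101 replicate 4 called 3. The smallest p among them were those of KRT18P38 (0.56 ± 0.15, edgeR adjusted p = 0.0583) and KRT18P17 (0.58 ± 0.18, 0.0787). Parent and pseudogene rows added together gave 165 ± 32.5 against 91.0 ± 17.0 CPM for KRT8, a ratio of 1.82, and 439 ± 109 against 308 ± 33.6 CPM for KRT18, a ratio of 1.43.

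**Figure D4:**
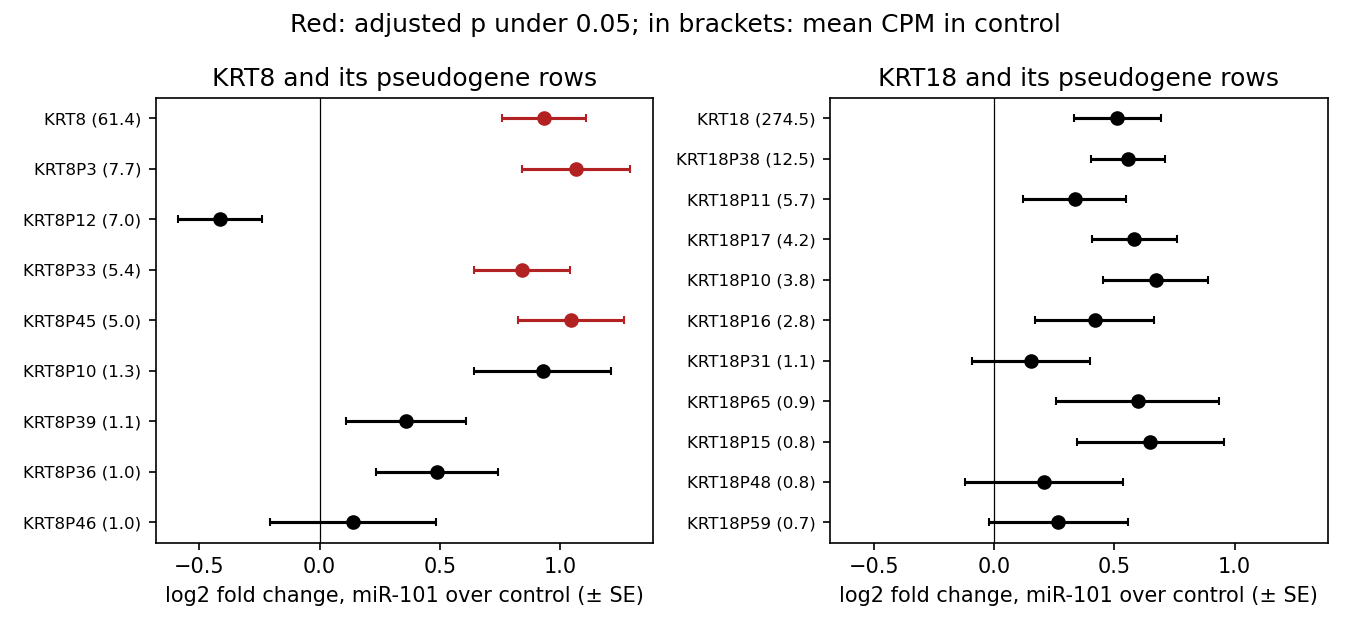
Log2 fold change, miR-101 over control, with its standard error (x axis) for KRT8, KRT18 and the rows of their pseudogenes, ordered below the parent by mean control CPM, which is given in brackets; red marks an edgeR adjusted p under 0.05. KRT8 and 3 of its 8 pseudogene rows are red, KRT8P12 lies below 0, and all 10 KRT18 pseudogene rows lie above 0.

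Levels of different genes were compared per kilobase of annotated exon, since a longer mRNA gives more reads. In the control the order was VIM at 358, KRT18 at 137, CDH2 at 31.4, TWIST1 at 14.5, KRT8 at 13.4, SNAI2 at 10.997, ZEB1 at 9.65 and ZEB2 at 1.32 CPM per kb. The libraries of TWIST1 overlapped those of KRT8, those of KRT8 overlapped SNAI2 and those of SNAI2 overlapped ZEB1, while ZEB1 lay above ZEB2 in every library. With miR-101 KRT8 came next after CDH2, at 25.6 against 28.2 CPM per kb, with overlapping libraries. Vimentin thus remained the most abundant member per length in both groups, at 311 ± 81.3 CPM per kb with the mimic. The lengths rest on GENCODE 29, where that of KRT8 includes exons of outlying transcripts, and the annotation behind the counts is not given in the sources used here.

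The genes whose log2 CPM over the 8 libraries was most like that of a called member were found among 11501 genes with at least 4 CPM on average. For ZEB1 they were ITGA6, PTK2 and ITGA2, for ZEB2 TMTC2 and ST8SIA1, and for KRT8 its pseudogene rows KRT8P33 and KRT8P3 with CFLAR. Their Pearson correlations of 0.984 to 0.994 are a description, since all points share the same 2 groups.

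The gene lists that follow are described by counts of called genes and were not tested as sets. Over all tested genes edgeR called 6.62% (3.3% higher and 3.32% lower), DESeq2 10.7%, limma-voom 6.66% and edgeR with the replicate block 10.5%. With replicates 1 and 2 summed edgeR called 1.09% of all genes. It called 1 gene of the cadherin list (higher), 3 of the mesenchymal list (higher) and 3 of the signal list (2 higher, 1 lower). It then called none of the other factors, corepressors, turnover genes, epithelial genes or other intermediate filament genes (1 to 8 of each list at an unadjusted p under 0.05).

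Among 16 other tested factors of the mesenchymal program none was called by edgeR or limma-voom (6 at an unadjusted p under 0.05, 3 lower by DESeq2, and 1 higher and 2 lower with the replicate block). The nearest were HMGA2, a chromatin protein (log2 fold change -0.72 ± 0.21, edgeR adjusted p = 0.0725, and called lower without miR-101 replicate 4), and SOX9, a factor of cartilage and stem cells (-0.97 ± 0.29, 0.0791, and called lower without control replicate 4). With the block their adjusted p were 0.0166 and 0.0488, and with replicates 1 and 2 summed 0.228 and 0.273 (edgeR). TCF12, an E-box binding partner of TWIST1 and the most abundant of these factors, had a log2 fold change of 0.24 (edgeR adjusted p = 0.521).

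Of 19 corepressors and partners of these factors 2 rose and none fell. LOXL2, a lysyl oxidase that binds and stabilises the SNAI1 protein, rose by 0.73 ± 0.11 (edgeR adjusted p = 0.00361), and kept its call in all 8 fits that left out 1 library. YAP1, a Hippo pathway coactivator that ZEB1 can bind, rose by 0.76 ± 0.20 (0.0435), a call that was kept only without control replicate 3 (largest edgeR p after adjustment 0.122 in the other fits that left out 1 library). With the block 4 genes were called higher and none lower, and DESeq2 called 5 higher and 1 lower. Exons of LOXL2 overlap those of ENTPD4, so its count is uncertain. PRMT5, a methyltransferase and the most abundant of the list, had a log2 fold change of -0.16 (0.349). Of 18 genes that control the turnover of these proteins, 1 fell. This was GSK3B, the kinase that marks SNAI1 protein for degradation, at 57.2 ± 5.58 against 84.0 ± 13.9 CPM, a change of -0.55 ± 0.13 on the log2 scale (edgeR adjusted p = 0.0298). GSK3B was not called once miR-101 replicate 1, 2 or 4 or control replicate 2 was left out (largest edgeR p after adjustment 0.103), and with the block 2 genes of this list fell. The casein kinases CSNK2A1 and CSNK1A1, the latter the most abundant of the list, had log2 fold changes of -0.36 (0.134) and -0.18 (0.378).

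Epithelial genes were measured through 25 of 45 listed. E-cadherin itself, CDH1, was not analysed here. Of the log2 fold changes in this list 17 were positive and 8 negative, with a median of 0.16. By edgeR 3 genes rose and none fell. They were RBM47, an RNA-binding protein (1.35 ± 0.27, edgeR adjusted p = 0.0149), CDS1, an enzyme of phosphatidylinositol synthesis (1.16 ± 0.24, 0.0166), and F11R, the junctional adhesion molecule JAM-A (0.57 ± 0.15, 0.0403). CDS1 stood at only 4.03 ± 0.991 against 1.80 ± 0.451 CPM, and RBM47 at 11.4 ± 3.14 against 4.45 ± 1.55 CPM. The mean levels of the list under miR-101 ran from 0.382 CPM (LSR) to 157 CPM (DSG2). LSR had a log2 fold change of -1.05 ± 0.34 and was not called (edgeR adjusted p = 0.0988). EPCAM, an epithelial adhesion molecule, had 12.7 ± 3.81 and 7.75 ± 2.45 CPM (edgeR adjusted p = 0.137), and the epithelial splicing regulator ESRP1 had 0.677 ± 0.208 and 0.622 ± 0.157 CPM. The most abundant gene of the list, the desmosomal cadherin DSG2, had a log2 fold change of 0.33 (0.116). The calls were lost without miR-101 replicate 1 (RBM47, F11R), miR-101 replicate 2 (all 3), control replicate 1 (CDS1, F11R) and, for F11R, miR-101 replicate 3 and control replicates 2, 3 and 4 (largest edgeR p after adjustment 0.129). With the block 5 genes were called higher and none lower, and DESeq2 called 4 higher and 1 lower.

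By edgeR KRT8 was the only keratin gene called, and KRT18 was not called (adjusted p = 0.12). Among 14 other tested intermediate filament genes and linkers none was called higher by edgeR, DESeq2 or limma-voom, 12 had a negative log2 fold change and the median was -0.36. The 2 called genes were nuclear lamins. LMNA, the A-type lamin, fell by 0.61 ± 0.14 (edgeR adjusted p = 0.0266) and LMNB1, a B-type lamin, by 0.45 ± 0.12 (0.0473). LMNA kept its call only without control replicate 3 or 4 and LMNB1 only without miR-101 replicate 4 (largest edgeR p after adjustment 0.15). KRT15 had a log2 fold change of -1.29 ± 0.35 (0.053), KRT80 of -0.60 (0.186) and KRT7 of -0.21 (0.594). LMNB2, the other B-type lamin and the most abundant of the list, had -0.04 (0.933). With the block 4 genes of the list fell, and with DESeq2 3.

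Of 12 other cadherins, catenins and cadherin proteases 2 rose and none fell. CDH7, a type II cadherin, rose by 1.21 ± 0.19 (edgeR adjusted p = 0.00554) from 2.27 ± 0.298 to 5.27 ± 1.09 CPM and kept its call in all 8 fits that left out 1 library and with replicates 1 and 2 summed (0.0432). ADAM10, the protease that sheds N-cadherin from the cell surface, rose by 0.66 ± 0.16 (0.0369), a call that was lost without any 1 miR-101 library or control replicate 2 (largest edgeR p after adjustment 0.103). CDH11, the osteoblast cadherin, stood at 339 ± 18.5 against 312 ± 60.6 CPM (edgeR adjusted p = 0.67), above CDH2 in both groups by CPM. CTNNB1, a catenin that binds cadherins and the most abundant of the list, had a log2 fold change of -0.12 (0.53).

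Mesenchymal genes moved in both directions. Of 34 tested 5 rose and 3 fell, against 3.3% and 3.32% of all tested genes, with a median of 0.10. The proteoglycan VCAN (1.27 ± 0.18, edgeR adjusted p = 0.00271), the protease FAP (1.34 ± 0.26, 0.0118), the growth factor receptor PDGFRA (0.70 ± 0.13, 0.0108) and the collagen COL5A2 (0.94 ± 0.25, 0.0463) rose. LUM, a small leucine-rich proteoglycan, rose as well, from 0.0815 ± 0.0894 to 2.01 ± 0.264 CPM (edgeR adjusted p = 0.000612). Its counts were 1, 4, 1 and 0 in control replicates 1 to 4 and 39, 38, 35 and 43 in miR-101 replicates 1 to 4. LUM thus passed the filter only through the miR-101 group, and its fold change and p rest on a control near 0. The fibronectin receptor subunit ITGA5 (-0.91 ± 0.17, 0.0114), the actin linker moesin, MSN (-0.46 ± 0.10, 0.0266), and the ectonucleotidase NT5E (-0.51 ± 0.12, 0.0278) fell. LUM, VCAN, PDGFRA, ITGA5 and FAP kept their calls in all 8 fits that left out 1 library. MSN, NT5E and COL5A2 lost theirs without any 1 miR-101 library and without control replicate 1, NT5E also without control replicate 2 and COL5A2 also without control replicate 3 (largest edgeR p after adjustment 0.136). The most abundant, the collagen COL6A3, had a log2 fold change of 0.38 (edgeR adjusted p = 0.205). With the block 9 rose and 5 fell.

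Signals that induce the mesenchymal state had 3 higher and 3 lower genes among 20 tested. TGFB2, a TGF-beta ligand, stood at 34.9 ± 6.75 against 13.9 ± 2.77 CPM, a change of 1.32 ± 0.18 on the log2 scale (edgeR adjusted p = 0.00253). TGFBR1, its type I receptor, stood at 165 ± 9.41 against 286 ± 26.1 CPM (-0.79 ± 0.10, 0.00191). Both kept their calls in all 8 fits that left out 1 library and with replicates 1 and 2 summed (0.0422 for each). The cytokine IL6 (2.77 ± 0.29, 0.000612) and its effector STAT3 (0.71 ± 0.16, 0.025) rose, and the receptors MET (-0.58 ± 0.14, 0.0299) and FGFR1 (-0.79 ± 0.17, 0.0228) fell. HIF1A, the oxygen-regulated factor and the most abundant of the list, had 0.03 (0.915). STAT3, MET and FGFR1 were no longer called when miR-101 replicate 1 or 2 was left out (largest edgeR p after adjustment 0.102), MET also without miR-101 replicate 3, and FGFR1 also without miR-101 replicate 4 or control replicate 1 or 2. Exons of FGFR1 overlap those of LETM2. Among the other named genes of these lists, exons of HMGA2, YAP1, PRMT5, CSNK1A1, RBM47, F11R, DSG2, LMNB2, ADAM10, VCAN, PDGFRA, ITGA5, FAP, IL6, TGFB2, HIF1A and SPARC overlap another annotated gene, and their counts are uncertain too. Seed matches were looked up for every called gene named from the lists that has an annotated 3' UTR. A match was held by 7 of 16 that rose and by 4 of 10 that fell. Of those that rose, YAP1, CDH7 and ADAM10 held a 7mer-m8 as the strongest and RBM47, F11R, VCAN and COL5A2 a 7mer-A1. Of those that fell, GSK3B and TGFBR1 held an 8mer, LMNB1 a 7mer-m8 and MET a 7mer-A1. Over the 12188 tested genes with an annotated 3' UTR 23.9% have any match, and 8.18% have a 7mer-m8 as their strongest. The named genes were chosen because they were called, and their counts were not tested against these shares.

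The lineage of the cells was checked by markers. Of 10 osteoblast markers 5 were measured, among them RUNX2, the master factor of bone formation, at 25.4 ± 4.80 against 13.4 ± 4.00 CPM and the matrix protein SPARC at 942 ± 577 against 564 ± 295 CPM. SP7, ALPL, COL1A2, BGLAP and IBSP were not analysed here. RUNX2 rose (0.93 ± 0.21, edgeR adjusted p = 0.0269), but was not called once miR-101 replicate 1, 3 or 4 or control replicate 1 or 2 was left out (largest edgeR p after adjustment 0.0812). Summed, the 5 measured markers ranged from 460 to 1641 CPM under miR-101 and from 330 to 928 CPM under the control mimic. SPARC, the most abundant of them, stood at 1433 and 1442 CPM in miR-101 replicates 1 and 2 and at 530 and 362 CPM in 3 and 4. In control replicates 1 to 4 it stood at 841, 796, 324 and 295 CPM. The level of the markers thus varied among cultures of both groups, and for SPARC replicates 1 and 2 lay above 3 and 4. COL1A1, the bone collagen, had a log2 fold change of 1.10 ± 0.31 (edgeR adjusted p = 0.0619). With the block 4 of the 5 were called higher and with DESeq2 2, but none with replicates 1 and 2 summed (edgeR, 3 at an unadjusted p under 0.05). Of 9 blood cell markers only CD14 was tested, at 1.71 ± 0.24 and 2.13 ± 1.09 CPM. Of 7 endothelial markers 3 were tested, summed at 17.7 to 28.9 CPM under miR-101 and 27.6 to 71.2 CPM under the control mimic, of which TIE1, a receptor kinase, fell by 1.31 ± 0.28 (edgeR adjusted p = 0.02), and did not pass when miR-101 replicate 3 or 4 or control replicate 1 or 2 was left out (largest edgeR p after adjustment 0.0629). Their part in the results above was not tested.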

How the data were processed

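The members and gene lists were chosen with earlier results of these data known, and p-values are adjusted over all tested genes only. The authors deposited raw counts of reads for each gene symbol, as whole numbers without normalisation. In each library 15977 to 15982 of the 15982 genes had a count above 0, so the table held hardly any undetected gene. As 15905 genes passed the filter, the fit without it could add few genes. The submitters' processing notes name hg38, StringTie 1.2.4, TopHat2 2.0.14 and bcl2fastq 2.18.0.12. Which step made the counts, from what annotation and with or without strand, is not given in the sources used here. All 8 columns matched a labelled sample. Libraries were made from total RNA after Ribo-zero Gold depletion, per the labels.

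The deposited counts were fitted in R 4.3.3 with edgeR 4.0.16 (filterByExpr, 15905 genes left; TMM; glmQLFit and glmQLFTest with group alone in the model). Called means a Benjamini-Hochberg adjusted p under 0.05. The code was tested on simulated data. CPM are counts per 1000000 counts of the TMM-scaled library size. Alternatives were DESeq2 1.42.0, limma-voom (limma 3.58.1), other scaling factors, no filter, the replicate block, each library left out, and replicates 1 and 2 summed, alone or left out. P-values measure the spread between these libraries of 1 line. Replicates 1 and 2 count as separate samples in them, although it is not shown that they came from separate cultures.

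Same-numbered libraries were taken as pairs, because the correlations over genes of their deviations from the group means were 0.328, 0.425, 0.185 and 0.209 in pairs 1 to 4, all above 0.1. The labels do not say that a number marks 1 experiment, and the correlations do not single out the same-numbered pairs. Control replicate 3 correlated more with miR-101 replicate 4 (0.391), and control replicate 1 more with miR-101 replicate 2 (0.374). For miR-101 replicate 1 the value was higher with control replicate 2 (0.372). Counts of pairs and fits with the replicate block rest on this pairing, which is thus uncertain.

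Of the tested symbols 14026 matched a GENCODE 29 gene name. Genes named were all members, EZH2, in each list every called gene (at most 8, by p) or otherwise the 2 smallest p, the most abundant gene of each list, and the 3 genes most like each called member, of which 1 is not reported here. KRT15, KRT80, KRT7, EPCAM, ESRP1, KRT8P12, LSR and CDH11 were chosen after their values were seen.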

Additional observations from a re-analysis of the deposited data

How the results depend on the processing

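No member changed sign in any of the 17 alternative fits. Over all genes edgeR called 525 higher and 528 lower, DESeq2 838 and 868, edgeR with the replicate block 883 and 793, with replicates 1 and 2 summed 106 and 67, in replicates 1 and 2 alone 2534 and 2592, and in replicates 3 and 4 alone 6 and 0. Members called higher and lower were 2 and 1, but 0 and 0 with replicates 1 and 2 summed or with replicates 3 and 4 alone, and 5 and 2 in replicates 1 and 2 alone. With replicates 1 and 2 summed, ZEB1 (-0.47), ZEB2 (0.64) and KRT8 (0.95, log2 fold changes) were not called, and so in replicates 3 and 4 alone (-0.40, 0.70 and 0.99). The cause was not tested. In replicates 1 and 2 alone SNAI2 (0.53), TWIST1 (0.31), VIM (-0.20) and KRT18 (0.65) were called. With the replicate block SNAI2 was called (0.49), and no other member's call changed.

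When 1 library was left out, the counts over all genes ran from 258 to 670 higher and 227 to 749 lower, and those over the members from 2 to 3 higher and 0 to 1 lower. The log2 fold changes then ran from -0.59 to -0.47 for ZEB1, 0.52 to 0.66 for ZEB2, 0.38 to 0.62 for SNAI2, 0.23 to 0.36 for TWIST1, -0.20 to -0.14 for CDH2, -0.41 to -0.03 for VIM, 0.82 to 1.05 for KRT8 and 0.41 to 0.66 for KRT18. Of the 29 called genes named from other lists, 10 kept the call in all 8 of these fits. All 29 had it with the replicate block and 7 with replicates 1 and 2 summed, and all 29 had the same sign in both pairs of replicates. They were named because they were called in all 8 libraries, so the shared sign is no separate support. Among them are the pseudogene rows KRT8P3, KRT8P45 and KRT8P33, which can hold reads of KRT8.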
